A study of Saccharomyces cerevisiae with 4 samples.

Results

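Eisosomes are furrow-like folds of the yeast plasma membrane, and the 7 genes described here encode proteins that build or occupy them: *SUR7* (YML052W), *FMP45* (YDL222C), *PUN1* (YLR414C), YNL194C, *PIL1* (YGR086C), *LSP1* (YPL004C) and *NCE102* (YPR149W). They were chosen by name from a table of 6172 genes. Of the 7, 5 had a value on all 4 arrays, *FMP45* had a value on 3, and YNL194C had none. The arrays set zymolyase-treated against untreated budding yeast, both of 1 *mid2* mutant strain derived from BY4741. Treated cells had 3 h of zymolyase at 0.8 units per ml, and untreated cells were the other part of the same divided culture, kept without the enzyme. Both grew in the rich medium YEPD at 24 °C. Zymolyase digests wall glucan. Mid2 is one of the sensors through which damage to the wall reaches the cell wall integrity pathway.

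Both groups carried the *mid2* mutation, so the values describe the mutant's response alone and say nothing of cells with intact *MID2*. The labels describe the strain only as a *mid2* mutant, without the allele, and give 2 cultures, each with a dye swap. Which arrays came from the same culture is not stated. Treated RNA was in Cy5 on arrays 2 and 4 and in Cy3 on arrays 1 and 3. *MID2* had no value on any array, so the genotype could not be checked, and on array 4 the comment given with the untreated RNA speaks of a *hog1* mutant, while its genotype label says *mid2*. *HOG1* read 0.20, 0.55, −0.15 and 0.26 on arrays 1 to 4.

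The eisosome scaffold is a coat of the BAR-domain proteins Pil1 and Lsp1, which bind and bend the inner face of the membrane. The kinases Pkh1 and Pkh2 phosphorylate both. Above the coat lie proteins that span the membrane, among them Sur7 and its relatives Fmp45, Ynl194c and Pun1, and the unrelated Nce102, which is known to respond to sphingolipids and to act upon the Pkh kinases. The compartment also holds nutrient permeases such as the arginine permease Can1. Loss of Pil1 or Nce102 is known to flatten the furrows in budding yeast.

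Values are given on the log2 scale as treated over untreated, a direction that is likely but not stated. No source used here gives the numerator, so the sign was taken from 10 genes known to be induced by wall stress, whose median lay between 1.65 and 2.35 on every array. Between arrays of opposite dye orientation, the Pearson correlation across genes was 0.39 for arrays 1 with 2 and for arrays 3 with 4. It was 0.14 for arrays 1 with 4 and 0.13 for arrays 2 with 3. Spearman correlations of these pairs lay only between −0.08 and 0.14. Whether the closer pairs shared a culture was not tested. Arrays of the same orientation were closer, with a Pearson correlation of 0.42 and a Spearman correlation of 0.39 between arrays 2 and 4 (treated RNA in Cy5), and 0.48 and 0.41 between arrays 1 and 3 (in Cy3). A ratio carries no expression level, so levels of the 7 genes cannot be compared with each other, and in RNA from whole cultures a change in the share of cells that express a gene cannot be told apart from a change in RNA per cell. The arrays differed as a whole: their medians were 0.04, −0.40, −0.13 and −0.08 on arrays 1 to 4, array 2 had 42.2% of its rows blank against 20.0% to 24.2% on the others, and array 4 had the narrowest spread. The number of arrays limits the precision.

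Of the 7 genes, *PUN1* rose, *FMP45* read higher on each of its 3 arrays, *PIL1* and *NCE102* lay slightly above 0 on every array, *LSP1* lay close to 0, and *SUR7* was far below 0 on 2 arrays and near 0 on the others. By mean the order was *PUN1* (1.77), *FMP45* (1.36), *PIL1* (0.43), *NCE102* (0.27), *LSP1* (0.03) and *SUR7* (−0.66). The ranges of the arrays overlapped for every pair of neighbours in this order. *FMP45* and *PIL1* overlapped only at their edges (lowest 0.81 and highest 0.82), as did *NCE102* and *LSP1* (lowest 0.11 and highest 0.14). In the limma test on culture means, 1 of the 5 genes tested passed an adjusted p of 0.05, where 4.15% of all 3299 genes tested passed. The median over the 5 was 0.27, and that over all genes tested was −0.14.

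**Figure D1:**
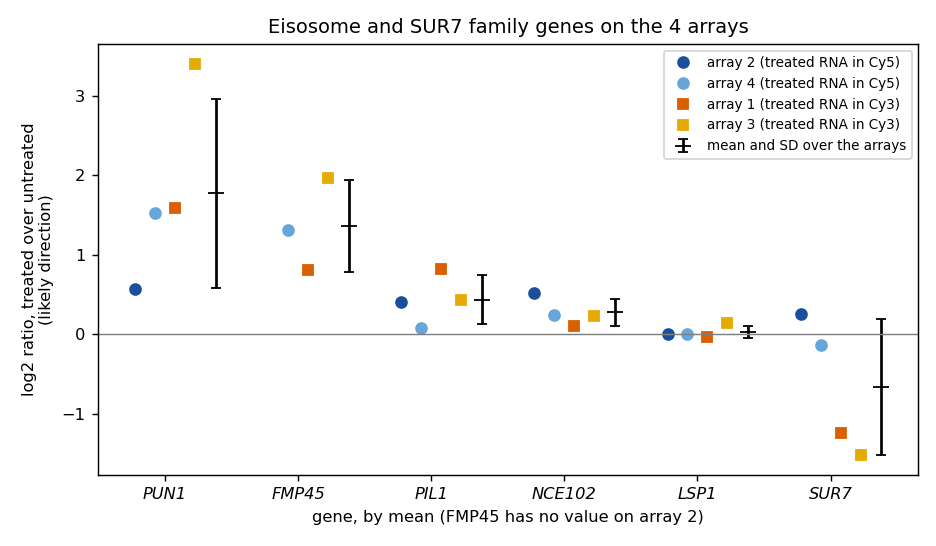
Log2 ratio (vertical axis, treated over untreated) of the 6 measured genes on each array, with circles for arrays with treated RNA in Cy5 and squares for those with it in Cy3. Black bars give the mean and SD over the arrays. The 2 squares of *SUR7* lie at −1.25 and −1.53 and its circles at 0.25 and −0.13, and all points of *PUN1* lie above 0.5.

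*PUN1* encodes a plasma membrane protein of the Sur7 family, named for its rise under nitrogen stress. It read 1.59, 0.56, 3.41 and 1.53 on arrays 1 to 4. All 4 arrays lay above 0, with array 3 highest and array 2 lowest. The mean was 1.77 ± 1.19 (SD, n = 4 arrays of 2 cultures), or 3.42-fold, and it passed the limma test (adjusted p = 1.31e-05, the larger of the values under the 2 possible pairings of arrays into cultures). The wider of the 95% intervals under the 2 pairings, which is the one given for each gene here, was 1.23 to 2.32. These intervals are equally wide for the 5 genes tested, since each took the same standard error of 0.28. They do not follow a gene's own spread over the arrays, such as the SD of 1.19 here. Among all genes with a value on the same array, *PUN1* stood at percentiles 98.9, 91.2, 99.9 and 99.5 on arrays 1 to 4, so its rank was high on array 2 as well, where ratios were lower as a whole.

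The size of the rise rested in part on array 3. Without array 3 the estimate was 1.18 and the gene did not pass (limma, adjusted p = 0.0887, with 3.06% of genes called). Without array 4 it was 2.01 and again did not pass (adjusted p = 0.0539), where only 0.152% of all genes were called. With 4 arrays and no dye term (adjusted p = 0.0581), and with arrays centred and scaled to 1 spread (adjusted p = 0.0811), it did not pass either, although both estimates stayed above 1.7. In the fits without array 3 or array 4, 1 culture was a single array, so the dye orientations were unbalanced.

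The 3 genes closest to *PUN1*, by Euclidean distance of the log2 ratios over the 4 arrays, were *PPR1*, *PRY2* and YPL088W, at distances of 0.75, 0.79 and 1.25. *PPR1*, which encodes the transcription factor of the pyrimidine pathway, read 1.23, 0.63, 2.94 and 1.98. *PRY2*, which encodes a secreted sterol-binding protein, read 1.39, 1.20, 3.09 and 1.25. All 3 were highest on array 3 and passed the test, but they were picked for closeness to *PUN1* on these same values. Their likeness to it follows largely from that choice and is no separate evidence.

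*FMP45* encodes a membrane protein of the Sur7 family and a close relative of Sur7 and Ynl194c. It read 0.81 on array 1, 1.97 on array 3 and 1.31 on array 4, and was blank on array 2. All 3 values were above 0 and the mean was 1.36 ± 0.58 (SD, n = 3 arrays), or 2.57-fold. The gene stood at percentiles 94.5, 99.4 and 99.4 of arrays 1, 3 and 4, so on arrays 3 and 4 it ranked about as high as *PUN1*.

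With a missing array, *FMP45* took no part in the test of genes with 4 values. In a fit of genes with values on at least 3 arrays, with a dye term, it rose by 1.35 (limma, adjusted p = 0.00707), and so did *PUN1*, which made 2 of 6 measured genes, where 3.93% of 4429 genes were called. That fit took each array as a separate replicate, although the arrays are dye swaps of 2 cultures. Without array 2, and with all genes that had values on the other 3 arrays, the estimate was 1.37 (limma, adjusted p = 0.0219), where 1.78% of 4220 genes were called. This fit kept culture means, but 1 culture was then a single array in 1 dye orientation. Array 2 was the blank one for 81.5% of the 1130 genes with 3 values, so the gap in *FMP45* was a common one.

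*SUR7*, the founding member of the family and the usual marker of the compartment, had the only mean below 0 among the 6 measured genes. It read −1.25, 0.25, −1.53 and −0.13 on arrays 1 to 4. Arrays 1 and 3, with treated RNA in Cy3, were thus low, and arrays 2 and 4, with it in Cy5, lay near 0. The mean was −0.66 ± 0.86 (SD, n = 4 arrays), and the gene did not pass (limma, adjusted p = 0.229, unadjusted p = 0.0163). Its 95% interval, which is not adjusted for the number of genes, was −1.21 to −0.12.

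The outcome depended on how arrays were joined into cultures. With arrays 1 and 4 as 1 culture and arrays 2 and 3 as the other, the adjusted p was 0.0187, and with arrays 1 and 2 and arrays 3 and 4 it was 0.229. Without array 2 the estimate was −1.07 (limma, adjusted p = 0.0443, but 0.0705 in the wider set of genes with values on the other 3 arrays). Without array 3 it was −0.27, and without array 1 it was −0.34. In each of these fits 1 culture was a single array in 1 dye orientation, so the 2 orientations were unbalanced. How much of these shifts came from that was not tested.

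By rank, *SUR7* was among the lowest genes on arrays 1 and 3 (percentiles 1.09 and 1.85), at percentile 39.8 on array 4 and at percentile 84.5 on array 2. Its mean with treated RNA in Cy5 was 0.06, against −1.39 with treated RNA in Cy3. The difference of 1.45 was larger than in 98.1% of genes tested, while the median size of this difference over genes was 0.37. *PUN1* differed by as much in the other direction, with means of 1.05 with treated RNA in Cy5 and 2.498 with it in Cy3.

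Neither difference passed a limma test of the dye orientation over all genes (adjusted p = 0.233 for *SUR7* and 0.346 for *PUN1*), in which 0 of 3299 genes, or 0%, were called. The unadjusted limma values were 0.00226 for *SUR7* and 0.0280 for *PUN1*, and 12.9% of all genes had an unadjusted p under 0.05. The differences of the remaining genes were smaller. With treated RNA in Cy5 and in Cy3, the means were 0.38 and 0.17 for *NCE102*, 0.24 and 0.62 for *PIL1*, and 0.00439 and 0.05 for *LSP1*. The part of the dyes in the values of *SUR7* was not tested beyond this.

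**Figure D2:**
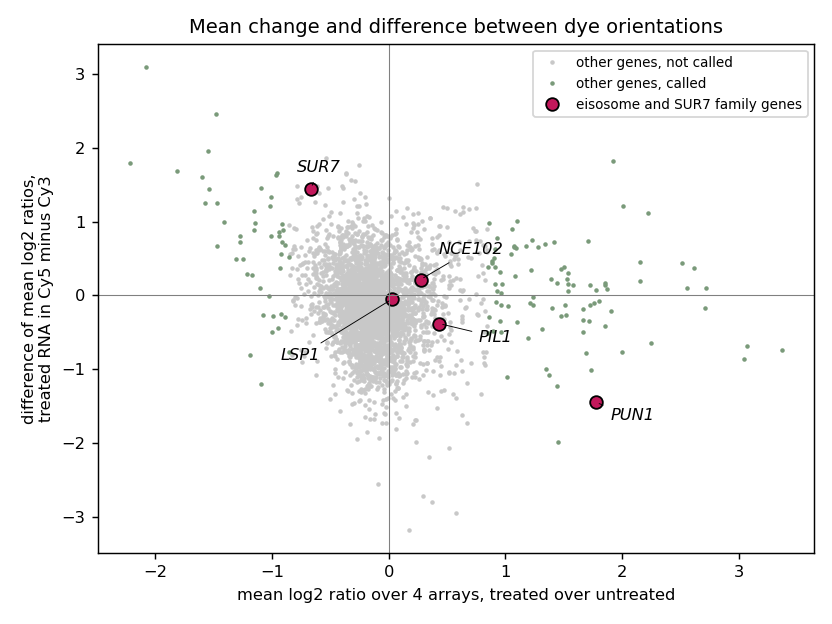
Mean log2 ratio over the 4 arrays (horizontal axis) against the difference of the means with treated RNA in Cy5 minus Cy3 (vertical axis) for the 3299 genes tested, with the 5 eisosome and SUR7 family genes as large circles. *SUR7* (1.45) and *PUN1* (−1.45) lie far from the horizontal line in opposite directions, and *LSP1*, *NCE102* and *PIL1* lie near it.

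Within the Sur7 family, *PUN1* exceeded *SUR7* on each array, by 2.84, 0.31, 4.94 and 1.67 on arrays 1 to 4. The mean difference was 2.44 ± 1.96 (SD, n = 4 arrays; exact two-sided sign-flip permutation test, p = 0.125, adjusted p = 0.125 over 2 pairs). That p is the smallest that 4 arrays allow, so this design could not show the difference by such a test. The test also took the arrays as separate, although they are dye swaps of 2 cultures. *FMP45* exceeded *SUR7* by 2.06, 3.49 and 1.45 on arrays 1, 3 and 4, which was not tested because of the missing array. The difference was thus in the same direction on every array with both values, and it was smallest for *PUN1* on array 2. YNL194C, the close relative of *FMP45*, had no value on any array, as did 14.2% of all genes.

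Neither scaffold gene passed the test. *PIL1*, which encodes the main coat protein, read 0.82, 0.41, 0.42 and 0.08 on arrays 1 to 4. All 4 values were above 0, with array 1 highest and array 4 lowest. The mean was 0.43 ± 0.31 (SD, n = 4 arrays), or 1.35-fold, which did not pass (limma, adjusted p = 0.691), and the 95% interval was −0.11 to 0.98. It ranked between percentiles 74.0 and 94.7 on the 4 arrays.

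*LSP1*, which encodes the paralog of Pil1 in the coat, read −0.03, 0.01, 0.14 and 0.00087 on arrays 1 to 4. The values lay on both sides of 0 and within 0.2 of it. The mean was 0.03 ± 0.08 (SD, n = 4 arrays; limma, adjusted p = 0.981), with an interval of −0.51 to 0.57, and without array 3 its sign turned (−0.0054). Only 1.12% of the genes tested had an SD over the arrays as small as that of *LSP1* or smaller, against a median SD of 0.39. *PIL1* exceeded *LSP1* on every array, by 0.86, 0.40, 0.28 and 0.07, a mean of 0.40 ± 0.33. An exact two-sided sign-flip permutation test, again with arrays taken as separate, gave p = 0.125, the smallest possible.

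*NCE102* encodes a small tetraspan protein that the furrows need in order to form. It read 0.11, 0.52, 0.22 and 0.25 on arrays 1 to 4. Every array was above 0, and array 2, the array with the lowest median, was the highest. The mean was 0.27 ± 0.17 (SD, n = 4 arrays), or 1.21-fold (limma, adjusted p = 0.846), with an interval of −0.27 to 0.82. Its ranks ran from percentile 55.6 on array 1 to percentile 90.3 on array 2. *FHN1*, the paralog of *NCE102*, had no value on any array.

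The means of *PIL1*, *NCE102* and *LSP1* lay under the smallest that passed the test among all genes, which were 0.85 for a rise and −0.85 for a fall. The median standard error of a gene in that test was 0.28. Centring the arrays on their medians moved the median of all genes by 0.14. Relative to that, the means of *PIL1*, *NCE102* and *LSP1* became 0.57, 0.41 and 0.17, still without a call, and that of *SUR7* became −0.52.

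**Figure D3:**
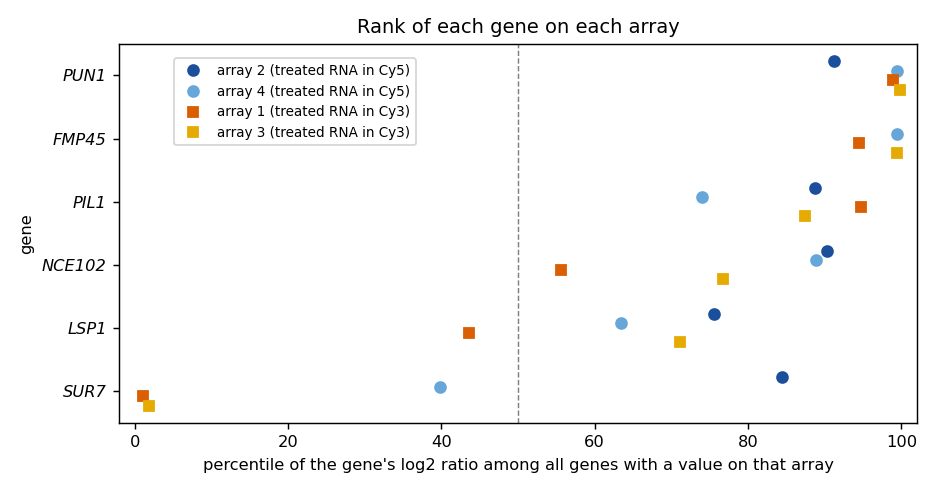
Percentile of each gene's log2 ratio (horizontal axis) among all genes with a value on the same array, for the 6 measured genes, with circles for arrays with treated RNA in Cy5 and squares for those with it in Cy3. *PUN1* and *FMP45* lie at percentile 91.2 or above on every array with a value, whereas *SUR7* runs from 1.09 to 84.5.

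Genes around the eisosome were read from 6 lists, of other eisosome genes, permeases of the compartment, other claudin-like membrane proteins, sphingolipid metabolism, the kinase complex TORC2 and the proton pump. Of their 54 genes 32 were tested, 1 rose, none fell, and 5 had an unadjusted limma p under 0.05. Over all 3299 genes tested, 4.15% were called and 10.8% had an unadjusted p under 0.05, so the calls in the lists were about as frequent as elsewhere. Their median was −0.12, against −0.14 for all genes tested.

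The other eisosome genes held no call among 4 tested in the limma test, and their median was −0.10. *YPK1*, which encodes a kinase that Pkh1 and Pkh2 activate, read 1.23, 0.34, 0.47 and 0.10 (adjusted p = 0.469). *XRN1*, an RNA exonuclease gene whose product is found at eisosomes after glucose runs out, read 0.0023, −2.18, −0.85 and −0.28 (adjusted p = 0.0626), so its mean of −0.82 leaned on array 2. *SEG1*, which encodes a protein that shapes eisosomes, and *EIS1*, another eisosome component, were named after their values were seen and had 3 values each. *SEG1* read 0.48, −1.28 and 0.10 on arrays 1, 3 and 4, and *EIS1* read 0.79, 0.24 and −0.07, so neither held 1 direction. In the fit on at least 3 arrays none of 9 other eisosome genes was called.

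All 4 permeases of the compartment were tested and none was called, with a median of −0.15. *FUR4*, the uracil permease gene, averaged −0.33 ± 0.62 and *MUP1*, the methionine permease gene, averaged 0.24 ± 0.15 (SD, n = 4 arrays; limma, adjusted p = 0.815 and 0.867). Without array 2, where it read −1.23, *FUR4* was at −0.0072. Of 5 other claudin-like membrane protein genes none had 4 values. The only ones with 3 were *TOS7*, at 0.82, 0.46 and 0.26 on arrays 1, 3 and 4, and *ECM7*, at 0.09, 0.46 and 0.48 on arrays 1, 2 and 4. Both are named after their values were seen, and neither passed in the limma fit on at least 3 arrays (adjusted p = 0.528 and 0.741).

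Sphingolipids are abundant in the plasma membrane, and the Slm proteins link eisosomes to the kinase complex TORC2, which adjusts their synthesis. Of 18 sphingolipid genes tested, *SUR1* alone rose and none fell, where 4.15% of all genes were called, and the list median was −0.16. *SUR1*, which is not one of the 7 eisosome and SUR7 family genes, encodes a subunit of the enzyme that adds mannose to inositol phosphorylceramide. It read 1.39, 0.85, 1.04 and 0.58 on arrays 1 to 4, a mean of 0.97 ± 0.34 (SD, n = 4 arrays; limma, adjusted p = 0.0152). All 4 arrays were above 0.5, but the call was lost without array 1 (0.80, adjusted p = 0.527), array 3 (0.89, adjusted p = 0.153) or array 4 (1.12, adjusted p = 0.111). The estimates stayed near 0.97, and without array 4 only 0.152% of all genes were called.

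The TORC2 list had no call among 2 genes tested, with *LST8* at −0.16 ± 0.16 and *TOR2* at −0.06 ± 0.22. The proton pump occupies the membrane outside the eisosomes, and the median of its 4 genes was 0.23. Its main gene *PMA1* read 1.57, 1.25, 0.23 and 0.01 on arrays 1 to 4 and its close paralog *PMA2* read 1.06, 1.15, −0.19 and 0.02, so both were high on arrays 1 and 2 alone. These spots may not tell the paralogs apart. Neither passed (limma, adjusted p = 0.0979 and 0.511), though *PMA1* did when arrays were centred (0.91, adjusted p = 0.0200).

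**Figure D4:**
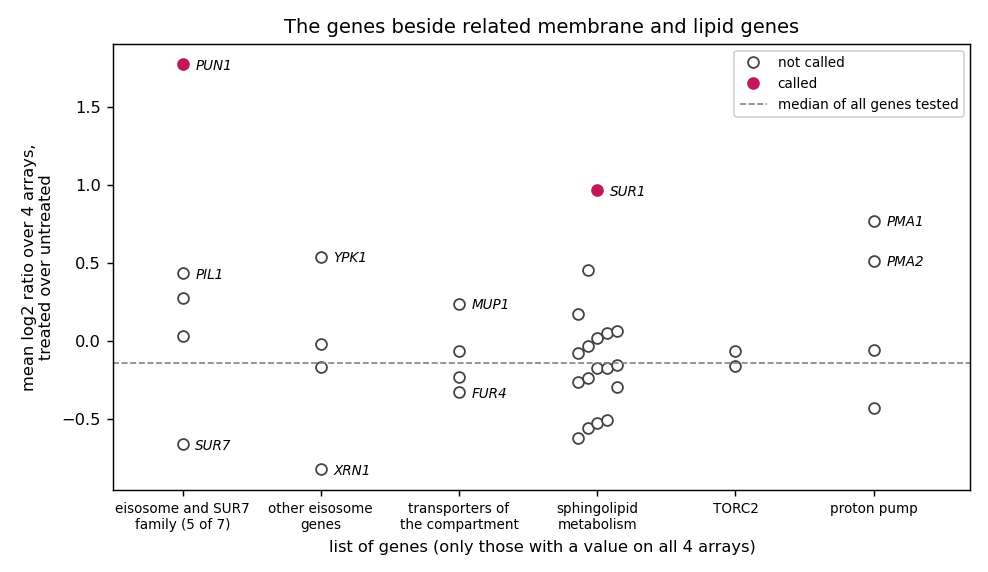
Mean log2 ratio over 4 arrays (vertical axis) of genes measured on every array, for 5 of the 7 eisosome and SUR7 family genes and 5 related lists. Filled circles passed the test, and the dashed line is the median of all genes tested, at −0.14. *PUN1* and *SUR1* are the only filled circles.

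**Figure D5:**
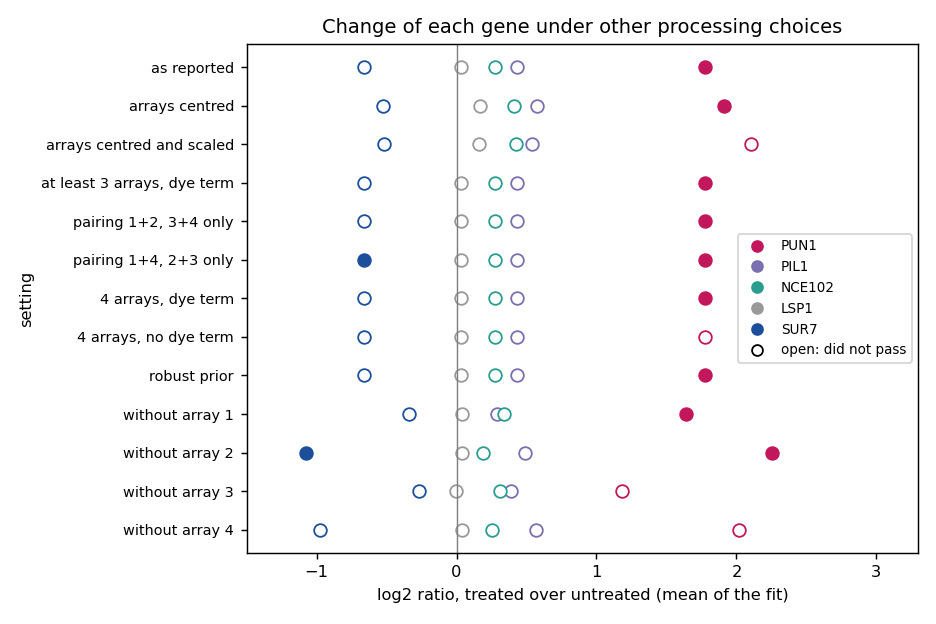
Estimate of each of the 5 tested genes (horizontal axis, log2 ratio of treated over untreated) as reported and under other processing choices (vertical axis), filled where the gene passed. *PUN1* stays between 1.18 and 2.26, *SUR7* between −1.07 and −0.27, and *PIL1*, *NCE102* and *LSP1* are open circles throughout.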

How the data were processed

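The deposited table gives 1 log2 ratio per open reading frame and array. Values were used as log2 ratios of the 2 channels, as the authors deposited them, but the sources used here do not state log base, numerator or normalization. Of 6209 rows, 2 controls were left out, names were matched to RefSeq (assembly R64: 5654 by locus tag, 57 by synonym, 496 by neither), and rows of 1 gene were averaged. Coordinates are left out, since no build is named.

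The 7 genes, the lists and the rule for named genes were chosen with earlier results of these data known. The rule names the 7 genes, listed genes that passed (or else the 2 with the largest mean in size), *MID2* and *HOG1*, and the 3 genes nearest to each called one. Genes with values on all 4 arrays (3299, or 53.5%) were tested with limma 3.58.1 in R 4.3.3. The arrays of each culture were averaged, and the 2 means were tested against 0 under both possible pairings, with 1 residual degree of freedom. A call needed an adjusted p (Benjamini-Hochberg) under 0.05 under both, and the larger p is given. Printed errors are SDs over arrays. Cultures number 2, and p-values borrow their spread across genes. The larger standard error of the 2 pairings was 0.28 for each of the 5 genes tested, whatever its own spread over the arrays. The procedure was tested on simulated data with arrays 1 and 2 as 1 culture and arrays 3 and 4 as the other. That simulation cannot vouch for calls on the real arrays, whose cultures are not stated. Other scalings, filters, models and single arrays left out were tried. With an array left out, 1 culture was a single array in 1 dye orientation, so the orientations were unbalanced. The dye test and the wider set of genes without array 2 were added after the values were seen.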

Additional observations from a re-analysis of the deposited data

Results flagged for a closer look

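In 1 of 18 named genes with 4 values, a single array stood apart from the other 3 by Dixon's criterion for 4 samples, which chance meets in about 5% of groups of independent samples. It was *PRY2*, the second nearest gene to *PUN1*, at 3.09 on array 3, with 1.39, 1.20 and 1.25 on arrays 1, 2 and 4. None of the 5 tested eisosome and SUR7 family genes met the criterion. The 10 genes that set the sign are not among the 18. Of them *PST1* met it too, at 1.07 on array 1, with 1.65, 1.69 and 1.73 on arrays 2 to 4. *PUN1*, to which *PRY2* was matched on these same arrays, was also highest on array 3, at 3.41, but its other values spread from 0.56 to 1.59.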

How the results depend on the processing

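Precision is limited by 4 arrays of unstated cultures, without spot brightness. Genes called numbered 137 (91 risen, 46 fallen), with 1 of the 7 eisosome and SUR7 family genes and 1 of the related lists. Only 104 of the 137 held 1 direction on all 4 arrays. Arrays centred and scaled to 1 spread gave 55 (46 and 9), with 0 of the family genes and *PUN1* at 2.10. Arrays 1 with 4 as the only pairing gave 306 (156 and 150), with 2 family genes (*PUN1* and *SUR7* at −0.66) and 3 list genes. No dye term on 4 arrays gave 65 (53 and 12), with 0 family genes and *PUN1* at 1.77. A robust prior gave 74 fallen and 2 list genes, centring 2 list genes, and values on at least 3 arrays 2 family genes. Single arrays left out gave 5 to 101 calls (4 to 83 risen, 1 to 25 fallen, 0 to 2 family genes, 0 to 1 list genes). The lowest count, 5, came without array 4, with 47 without array 1 and 73 without array 2. In the wider set of genes without array 2, 75 were called (55 and 20), with 2 family genes and 0 list genes. Leaving out single arrays, the fit gave *PUN1* from 1.18 to 2.26, *SUR7* from −1.07 to −0.27 and *LSP1* from −0.0054 to 0.042. It gave *PIL1* from 0.29 to 0.57 and *NCE102* from 0.19 to 0.34. *FMP45* ran from 1.06 to 1.64 as a plain mean of the 2 arrays left to it. As plain means over arrays, the difference of *PUN1* and *SUR7* ran from 1.60 to 3.15, and that of *PIL1* and *LSP1* from 0.25 to 0.51. *TOR2* turned from −0.06 to 0.075 with centring, 0.054 with scaling and 0.024 without array 2 (also in the wider set), and was lowest (−0.17) without array 3. *PIL1* and *NCE102* kept sign and lack of call in all 15 alternatives, and *LSP1* its lack of call. The cause of these changes was not tested. Each ratio already sets treated against untreated cells of 1 divided culture. All arrays belong to 1 group, so no pairing between groups was possible.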

Other observations

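The genes next to the 7 on the chromosome, 14 in all by the order of RefSeq, overlapped none of them. Of 6 tested, 0 were called and 0 had an unadjusted limma p under 0.05, with means between −0.12 and 0.46. Over all genes tested these shares were 4.15% and 10.8%, so counts of 0 among 6 genes say little. YML053C, which lies beside *SUR7* and is named after its values were seen, read 0.65, −1.17, 0.72 and −0.67 on arrays 1 to 4. It was thus high where *SUR7* was low and low on arrays 2 and 4. *HBT1*, beside *FMP45* and named likewise, read 0.41, 0.64 and 0.62 on arrays 1, 3 and 4 and was blank on array 2 as well.

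*YPK2*, the paralog of *YPK1*, also had 3 values and is named after they were seen. It read 0.63, 0.68 and 0.56 on arrays 1, 3 and 4, and its estimate of 0.61 did not pass in the fit on at least 3 arrays (limma, adjusted p = 0.303). Its spread over the 3 arrays was 0.06 (SD).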
